A study of Mus musculus with 36 samples.

Results

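Secretory progenitors were compared with progenitors in single-cell RNA data from the small intestine of 12 month old wild-type mice of strain C57BL6/2J. Both are cell types named in the authors' deposited annotation, and their cells were taken by that name and joined to the 2 droplet libraries (set1 and set2, here libraries 1 and 2) by library and barcode. The annotation named 228 secretory progenitors, 82 in library 1 and 146 in library 2. It named 694 progenitors, 330 in library 1 and 364 in library 2. These are 2 of 8 types among 2614 annotated cells, 1144 in library 1 and 1470 in library 2, out of 8920 deposited barcodes. The other types were intestinal stem cells (ISC), goblet, Paneth, enteroendocrine (EEC) and tuft cells and enterocytes. The comparison asks what differs between dividing progenitors and cells that have entered the secretory fate.

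Cells of the crypt base divide and pass through a progenitor stage in which they become absorptive or secretory. Notch signalling decides between these fates: a cell that receives the signal switches on Hes1, which represses Atoh1, while a cell that escapes it expresses Atoh1, the transcription factor required for all secretory lineages, and displays Notch ligands to its neighbours. Spdef and Gfi1 act downstream of Atoh1 in goblet and Paneth cells, and Neurog3 directs enteroendocrine cells.

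The sequences before the starts of 4 genes that carry the comparison are shown because Atoh1 encodes the factor that opens the secretory fate, Dll1 a Notch ligand, Spdef a goblet and Paneth factor and Muc2 the main secreted mucin. Each is the 250 bases before a RefSeq start in build GRCm38.p6, on the gene's own strand. Capitals mark matches on either strand to CAGCTG or CAGATG, which are forms of the E-box bound by factors of the class of Atoh1, or to TGGGAA, the core that the Notch effector Rbpj binds. The genes, windows and motifs were chosen after the values were seen.
Atoh1 (chr6:64728875-64729124, plus strand): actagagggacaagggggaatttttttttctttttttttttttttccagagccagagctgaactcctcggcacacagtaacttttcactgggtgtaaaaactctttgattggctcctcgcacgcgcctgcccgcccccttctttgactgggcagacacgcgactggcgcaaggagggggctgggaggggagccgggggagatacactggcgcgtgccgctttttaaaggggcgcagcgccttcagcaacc
Dll1 (chr17:15376933-15377182, minus strand, 1 of 2 listed starts): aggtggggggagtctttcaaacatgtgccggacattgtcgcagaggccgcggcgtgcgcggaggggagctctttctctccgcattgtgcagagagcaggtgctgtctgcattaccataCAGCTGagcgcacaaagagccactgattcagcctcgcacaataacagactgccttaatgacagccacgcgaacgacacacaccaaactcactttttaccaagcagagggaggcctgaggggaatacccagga
Spdef (chr17:27728952-27729201, minus strand): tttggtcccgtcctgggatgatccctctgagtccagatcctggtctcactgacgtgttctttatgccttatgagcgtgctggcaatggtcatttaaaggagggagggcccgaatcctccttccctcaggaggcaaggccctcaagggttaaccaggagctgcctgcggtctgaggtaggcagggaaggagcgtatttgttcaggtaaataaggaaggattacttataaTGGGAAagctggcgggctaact
Muc2 (chr7:141690090-141690339, plus strand): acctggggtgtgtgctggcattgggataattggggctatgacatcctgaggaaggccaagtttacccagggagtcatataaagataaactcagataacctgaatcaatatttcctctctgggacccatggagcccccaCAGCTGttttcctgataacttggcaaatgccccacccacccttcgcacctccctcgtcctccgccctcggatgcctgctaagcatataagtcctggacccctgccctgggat
The Dll1 and Muc2 windows each held 1 CAGCTG, the Spdef window held 1 TGGGAA and the Atoh1 window held none of the 3 motifs. The other listed Dll1 window, not shown, held none of them either. CAGCTG stood in 13.9% of the 454 windows of genes higher in secretory progenitors, in 11.3% of the 10552 windows of all tested genes and in 4271 of all 32851 windows. For CAGATG the shares were 12.3%, 9.45% and 14.4%, and for TGGGAA 21.6%, 19.96% and 21.6%. In the 104 windows of genes lower in secretory progenitors, the shares were 8.65% for CAGCTG, 15.4% for CAGATG and 26.0% for TGGGAA. Windows were listed for 330 of the 453 higher genes. A match is a run of letters and does not show binding.

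The values are counts of unique molecular identifiers (UMIs), each standing for 1 captured RNA molecule. They were summed per library and type to 1653950 and 6581863 UMIs in secretory progenitors of libraries 1 and 2, and to 6028825 and 12134928 UMIs in progenitors. The median cell held 19132 and 37838 UMIs in secretory progenitors, against 17366 and 26650 UMIs in progenitors. Mitochondrial genes took 5.33% and 8.99% of the sums in secretory progenitors, against 5.86% and 9.79% in progenitors, and no barcode occurred in both libraries. The fit took out the difference between libraries that all types share (library as a block). P-values therefore measure how far differences between types varied between the 2 libraries, a spread estimated over all types in the fit. Nothing in the labels says whether the libraries come from separate mice, so that spread may be technical. The types were named by the authors from these cells, by a method not given in the sources used here. Genes that shaped the types had to differ between them, so a p-value here does not show that the types exist. A small p-value can also rest on 1 library, as for Hbb-bs below. Levels below are CPM, UMI counts scaled to a common library size with the trimmed mean of M-values (TMM), and are given for library 1 and then library 2.

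The label was checked against markers. Of 8 secretory progenitor markers, 6 were higher than in progenitors (Atoh1, Dll1, Dll4, Spdef, Gfi1 and Hepacam2), while Sox4 and Neurog3 did not pass the test. None of 8 progenitor markers of the dividing cell (Mki67, Pcna, Mcm5, Mcm6, Top2a, Ccnb1, Cdk4 and Stmn1) was called, with log2 fold changes of -0.56 to 0.03. Set beside progenitors alone, the cells named secretory progenitors thus carried markers of both names. Among all 8 types, none of the secretory progenitor markers had its highest mean in secretory progenitors or progenitors, and 3 of the progenitor markers did. The first set therefore does not single out secretory progenitors from the other types.

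At a 2-fold limit, secretory progenitors had more genes above progenitors than below them. Of the 15 largest rises among genes with at least 50 CPM, 12 were members of a list of goblet markers. That list was chosen with earlier results of these data known, so the overlap may be partly built in. Of 10814 genes tested, 453 were higher and 97 were lower in secretory progenitors, at an adjusted p under 0.05 by edgeR's quasi-likelihood test and a log2 fold change of at least 1 in size. These are 4.19% and 0.897% of the genes tested. With no limit on size, 772 genes were higher and 598 lower at the same adjusted p. The median log2 fold change was 1.84 among the higher genes and -1.20 among the lower ones, against -0.07 over all genes tested. A difference of at least 8-fold was seen in 124 higher genes and 4 lower genes, the last being Hba-a1, Hbb-bs, Cd36 and Rassf5, named after their values were seen.

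The libraries showed the same sign in 450 of the 453 higher genes and in 95 of the 97 lower genes. A log2 fold change of at least 1 in each library was present in 354 of the higher genes, while 40 of the lower genes were at -1 or below in each. The count of lower genes moved with the choice of cells and of test. It was 401 with only the secretory progenitors at or under the median UMI count of the progenitors of their library, and 9 without library as a block. The count of higher genes was 473 and 252 in those settings.

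**Figure D1:**
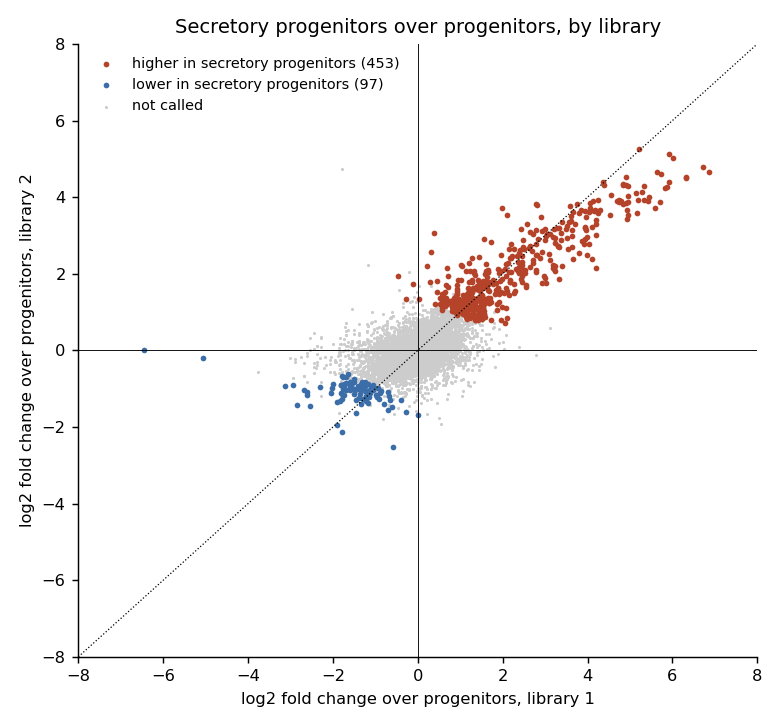
Log2 fold change of secretory progenitors over progenitors in library 1 (x axis) and library 2 (y axis) for each of the 10814 genes tested. Red points are the 453 genes higher and blue points the 97 genes lower in secretory progenitors, grey points were not called, and the dotted line marks equal values; most red points sit in the upper right and the blue ones lie closer to 0.

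Secretory progenitors held more RNA of 2 Notch ligands. Dll1, a ligand that secretory cells display to their neighbours, had 62.9 and 56.5 CPM in secretory progenitors, against 7.24 and 6.50 CPM in progenitors. The groups did not overlap, and the log2 fold change was 3.12 ± 0.21 (SE; adjusted p = 2.68e-10, edgeR). Dll4, a second ligand of the Delta type, had 12.5 and 15.9 in secretory progenitors, against 0.696 and 1.70 in progenitors, a log2 fold change of 3.42 ± 0.30 (adjusted p = 1.42e-08, edgeR). Jag1, a ligand of the Jagged type, did not pass the test, with 5.49 and 4.89 in secretory progenitors and 8.35 and 6.56 in progenitors. The other 2 ligands of the list were too low to test.

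Genes that receive and process the signal differed little. Of 20 tested receptors, processing enzymes and co-factors, 1 was higher and none was lower, and their median log2 fold change was -0.03. The member that rose was Lfng, a glycosyltransferase that modifies Notch, with 14.98 and 8.76 CPM in secretory progenitors, against 2.37 and 1.51 in progenitors (log2 fold change 2.59 ± 0.31, adjusted p = 2.24e-06, edgeR). Without library as a block, none of the 20 was called. Notch1, the main receptor of the crypt, had 12.99 and 7.96 in secretory progenitors and 14.6 and 12.7 in progenitors (adjusted p = 0.194). Rbpj, the nuclear partner of the receptor, had 6.99 and 13.3 in secretory progenitors and 11.3 and 14.1 in progenitors (adjusted p = 0.518). Both genes were lower in secretory progenitors within each library, their values overlapped across libraries, and neither was called.

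Of 4 tested Notch targets, 1 was lower and none was higher, and all 4 had a negative log2 fold change. Hes1, the repressor of Atoh1, had 47.9 and 24.9 CPM in secretory progenitors, against 59.6 and 47.2 in progenitors. It was lower in secretory progenitors within each library, while the values overlapped across libraries, and the log2 fold change of -0.67 ± 0.24 missed the threshold (adjusted p = 0.0741, edgeR). Olfm4, a Notch target that marks stem cells, had 2.50 and 14.3 in secretory progenitors, against 4.31 and 43.2 in progenitors. It was lower within each library, while its level differed more between libraries than between types (log2 fold change -1.51 ± 0.33, adjusted p = 0.00273, edgeR; adjusted p = 0.703 by DESeq2, 0.911 without library as a block and 0.179 with only secretory progenitors of low UMI count).

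**Figure D2:**
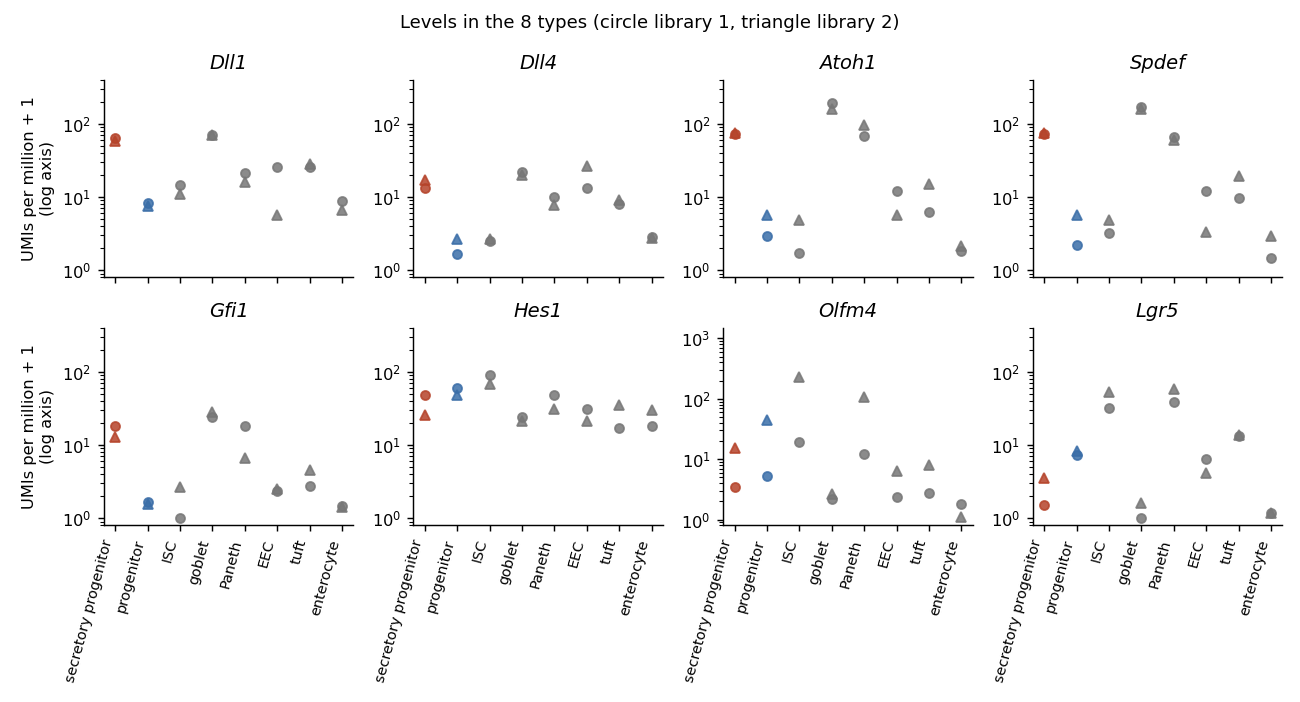
Level of 8 Notch, secretory and stem cell genes in each of the 8 types, as CPM plus 1 on a log axis, with secretory progenitors in red, progenitors in blue and other types in grey (circle, library 1; triangle, library 2). Dll1, Dll4, Atoh1, Spdef and Gfi1 stand higher in secretory progenitors than in progenitors, and the levels of Dll1 in secretory progenitors, 62.9 and 56.5, lie near those in goblet cells, 69.2 and 69.2.

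Of 33 listed transcription factors of the secretory lineages, 17 were tested and 16 were too low to test. Of the 17, 11 were higher and none was lower, and their median log2 fold change was 3.19. The 11 include Hepacam2, which is not a transcription factor. A gene could pass the filter of 10 UMIs in at least 2 of the 4 sums through its secretory progenitor sums alone. With no filter on low counts, 13 of 31 were higher and the median was 2.03. Atoh1 had 71.4 and 73.3 CPM in secretory progenitors, against 1.95 and 4.73 in progenitors (log2 fold change 4.29 ± 0.25, adjusted p = 4.93e-11, edgeR). Spdef had 71.9 and 74.5 in secretory progenitors, against 1.25 and 4.61 in progenitors (4.44 ± 0.29, adjusted p = 1.72e-10). Gfi1, a repressor that separates goblet and Paneth from enteroendocrine fate, had 17.0 and 12.1 in secretory progenitors, against 0.696 and 0.568 in progenitors (4.41 ± 0.39, adjusted p = 1.61e-08). In all 3 genes both secretory progenitor values stood many times above both progenitor values.

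The other factors that rose were Creb3l1 and Creb3l4, which act in the secretory pathway, Bhlha15, a factor of mature secretory cells, Foxa1, Foxa2 and Foxa3, Klf4, a factor needed for goblet cell maturation, and Hepacam2, which the list holds as a marker of the same cells. Their log2 fold changes ran from 1.98 for Foxa1 to 4.50 for Hepacam2. Xbp1, the factor that expands the endoplasmic reticulum, passed the test on p with a log2 fold change of 0.85 ± 0.14 (adjusted p = 0.000174, edgeR), below the size required. Neurog3 was seen in few cells: 3 and 12 UMIs from 1 and 3 secretory progenitors, against 13 and 0 UMIs from 1 and 0 progenitors. Of 17 tested factors of the absorptive lineage, none was called in either direction, and their median log2 fold change was -0.42. At an adjusted p under 0.05 of any size, 6 were lower (Cdx2, Klf5, Maf, Nr5a2, Ppara and Ppargc1a) and 1 was higher (Tcf7l2). Hnf4a, a factor of enterocyte identity, had 198 and 143 in secretory progenitors and 231 and 155 in progenitors (adjusted p = 0.558). With only the secretory progenitors of low UMI count, 6 of the absorptive factors were lower.

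Single cells carried Atoh1 RNA more often in secretory progenitors. With every cell thinned to 8000 UMIs, a UMI of Atoh1 was found in 40 of 82 (48.8%, exact binomial 95% interval 37.6 to 60.1%) and 70 of 142 secretory progenitors (49.3%, 40.8 to 57.8%). In progenitors the counts were 4 of 330 (1.21%, 0.331 to 3.07%) and 12 of 336 (3.57%, 1.86 to 6.16%). Enterocytes, which should lack Atoh1, showed 0.246% and 0.425%, and goblet cells 71.4% and 69.9%. Dll1 was found in 41.5% and 50.7% of secretory progenitors, against 5.76% and 3.87% of progenitors, and the progenitor shares were at or below the 6.90% and 4.03% of enterocytes, so these shares show no more Dll1 in progenitors than in enterocytes at equal depth. Unthinned, Dll1 was found in 69.5% and 88.4% of secretory progenitors, 11.3% and 14.5% of enterocytes and 11.5% and 14.8% of progenitors. Thinning left out 0 and 4 secretory progenitors and 0 and 28 progenitors. The unthinned shares for Atoh1 were 72.0% and 89.7% in secretory progenitors, 3.03% and 9.62% in progenitors and 0.985% and 2.87% in enterocytes, at median depths of 15164 and 24698 UMIs in the last. The intervals cover counting error only.

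Goblet markers rose together. All 23 tested members of a list of 25 were higher, with a median log2 fold change of 4.85 and a range of 2.70 to 5.65. Whether these genes served to name the cells is not given in the sources used here. Muc2 had 1359 and 2545 CPM in secretory progenitors, against 21.9 and 120 in progenitors (5.06 ± 0.52, adjusted p = 2.27e-07, edgeR). Tff3, a trefoil peptide secreted with mucus, had 18005 and 7754 in secretory progenitors, against 337 and 318 in progenitors (5.19 ± 0.57, adjusted p = 5.84e-07). Agr2, a disulfide isomerase needed for mucin assembly, had 6556 and 9002 in secretory progenitors, against 61.5 and 326 in progenitors (5.51 ± 0.44, adjusted p = 3.99e-09). Both libraries showed each rise, and library 1 showed the larger fold for all 3, with log2 values of 5.93, 5.74 and 6.73 against 4.40, 4.61 and 4.79 in library 2.

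The 15 largest rises among genes with at least 50 CPM were mostly of this kind. Genes with no UMI in progenitors, such as Mptx1 and Serpina9, fall below that level. Tpsg1, a serine protease of the tryptase family, rose most, with 144 and 99.2 in secretory progenitors against 1.95 and 2.40 in progenitors (log2 fold change 5.65 ± 0.31, adjusted p = 4.26e-11, edgeR). Ramp1, a receptor co-factor for the peptide CGRP, had 54.9 and 81.5 in secretory progenitors against 0.418 and 2.08 in progenitors (5.52 ± 0.36). The chemokine Ccl9, the mucus protein Zg16, the inhibitor Spink4, the mucus-processing protease Clca1 and the hormone precursor Guca2a followed, at 5.44, 5.24, 5.19, 5.14 and 4.94. The rest were Scin, Bcas1, Rep15, Gcnt3 and Rap1gap, from 4.88 for Scin to 4.63 for Rap1gap, together with Tff3, Agr2 and Muc2. None of the 15 had overlapping groups, which the choice of the largest rises with the same sign in both libraries made likely. The share of all genes tested without overlap is not given here. Of the 15, 12 are members of the goblet list, and Ramp1 and Spink4 had their highest mean in Paneth cells.

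**Figure D3:**
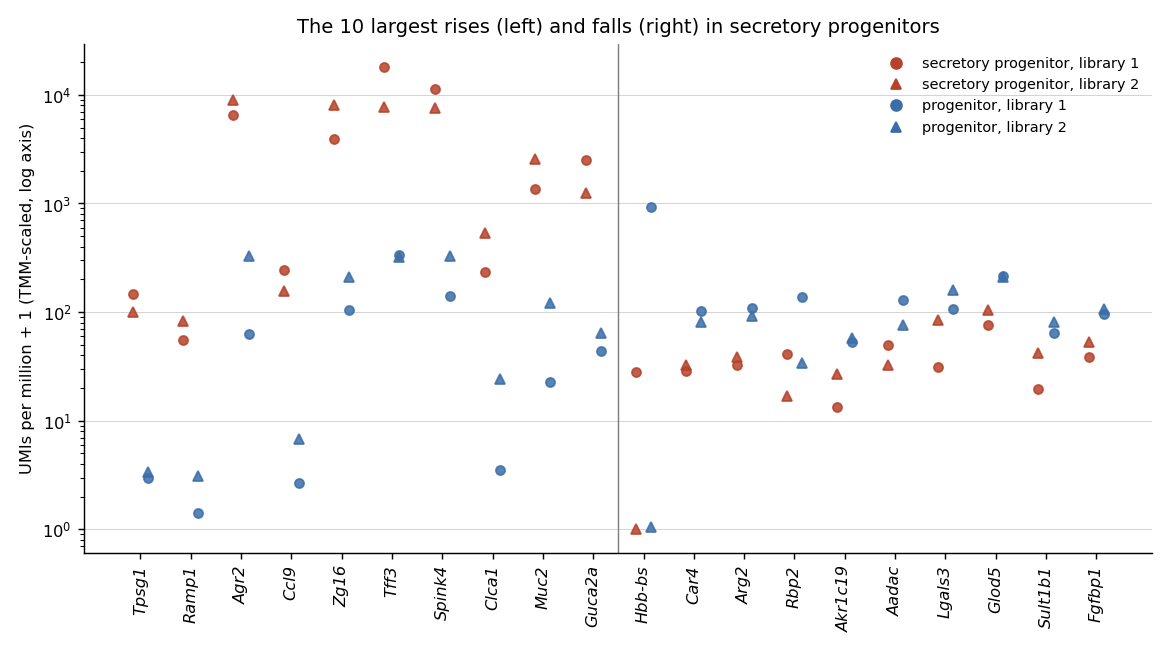
Level of the 10 genes with the largest rise (left of the grey line) and the 10 with the largest fall (right of it) among the genes named by rule, as CPM plus 1 on a log axis, in secretory progenitors (red) and progenitors (blue) of library 1 (circles) and library 2 (triangles). Red points stand far above blue points for the rises and closer below them for most falls; Hbb-bs is high in progenitors of library 1 and near 0 in library 2.

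The goblet programme in secretory progenitors stood between those of progenitors and goblet cells. The 25 goblet markers took a median of 4.68% and 5.30% of a cell's UMIs in secretory progenitors, against 18.4% and 18.3% in goblet cells and 0.0582% and 0.0398% in progenitors. The medians in secretory progenitors were 25.4% and 29.0% of those in goblet cells. Spread within the type was wide, from 0.678% to 22.2% in library 1 and from 0.353% to 17.5% in library 2. All 82 secretory progenitors of library 1 and 142 of 146 in library 2 lay above the 95th percentile of progenitors, and 59 and 111 lay above the highest progenitor. Of the same cells, 53 and 83 lay below the 5th percentile of goblet cells. Some progenitors carried these RNAs too, up to 2.75% and 2.95% of their UMIs.

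**Figure D4:**
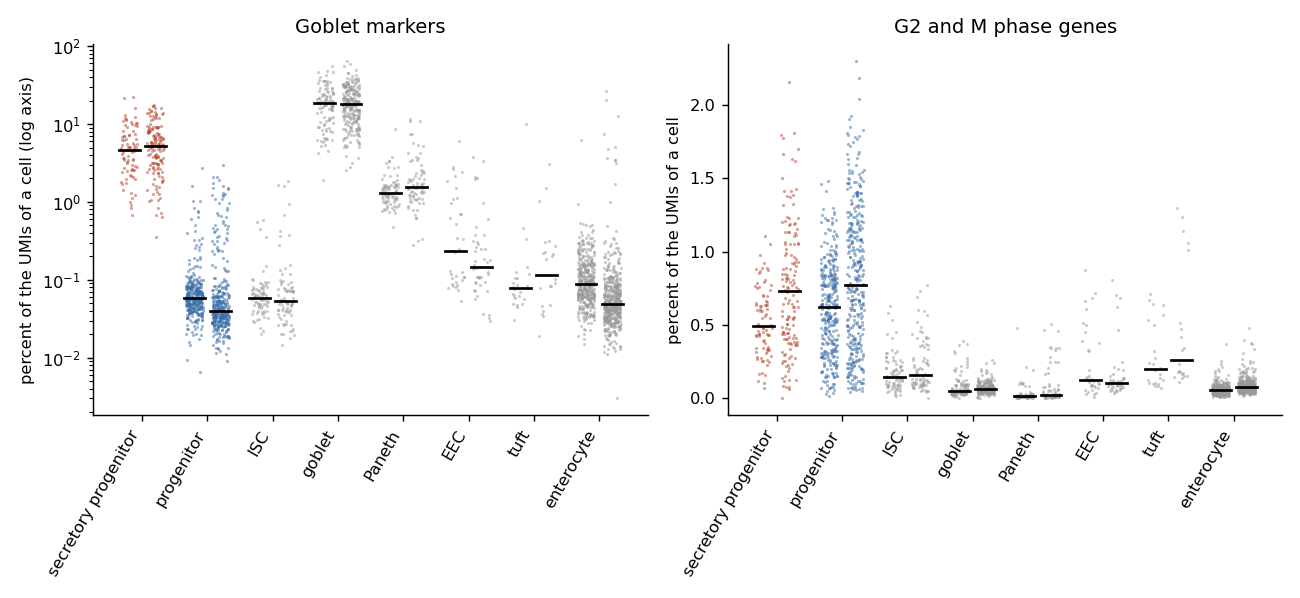
Percent of each cell's UMIs from the 25 goblet markers (left, log axis) and from 55 genes of G2 and M phase (right), by type and library, with library 1 to the left of library 2 in each type, 1 point per cell and a bar at the median, and 1 cell below the left axis drawn at its lower edge. Secretory progenitors, in red, lie between progenitors and goblet cells in the goblet markers and beside progenitors in the division genes.

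All 23 goblet markers tested were lower in secretory progenitors than in goblet cells by the same rule, with a median log2 fold change of -1.93, where 7.29% of all genes tested were higher and 5.96% lower in that contrast. Zg16 showed a log2 fold change of -3.17 against goblet cells, with 3913 and 8027 CPM in secretory progenitors and 45198 and 58605 in goblet cells. Atoh1 was lower as well, with 71.4 and 73.3 in secretory progenitors and 193 and 160 in goblet cells (log2 fold change -1.29, adjusted p = 4.67e-05, edgeR). Dll1 and Dll4 did not pass that test, with log2 fold changes of -0.23 and -0.42 (adjusted p = 0.377 and 0.207). Of the 453 genes higher than in progenitors, 439 had a mean level between those of progenitors and goblet cells, 423 of them in each library. The 453 were chosen as higher than in progenitors, so these counts add only that the level in goblet cells was higher still. The share of all genes tested with a higher level in goblet cells is not given here. By the same rule, 274 of the 453 were lower than in goblet cells and 0 were higher.

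Parts of the secretory machinery rose, most by modest amounts. Of 36 tested genes of folding and stress in the endoplasmic reticulum, 8 were higher and none was lower, and 24 had an adjusted p under 0.05 with a positive sign. The median log2 fold change of the list was 0.69. Txndc5, a disulfide isomerase, had 416 and 439 CPM in secretory progenitors, against 34.5 and 42.3 in progenitors (3.47 ± 0.20, adjusted p = 4.26e-11, edgeR). Ern2, the stress sensor of mucous epithelia, had 54.9 and 59.1 in secretory progenitors, against 1.39 and 4.29 in progenitors (4.16 ± 0.29, adjusted p = 3.72e-10). Both groups were well apart in both genes. The general chaperone Hspa5 had 349 and 510 in secretory progenitors and 255 and 292 in progenitors, a log2 fold change of 0.64 ± 0.15 (adjusted p = 0.00703) that is below the size required. The list's other higher members were Agr2, Pdia6, Sdf2l1, Herpud1, Ero1lb and Nucb2.

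Genes of translocation and vesicle transport gave 8 higher and none lower of 49 tested, with a median log2 fold change of 0.56. Kdelr3, a receptor that returns proteins to the endoplasmic reticulum, had 19.98 and 40.4 CPM in secretory progenitors, against 0.557 and 1.51 in progenitors (4.77 ± 0.26, adjusted p = 4.26e-11, edgeR). Rab27a, Rab27b and Rab3d, small GTPases of secretory granules, rose by log2 fold changes of 3.29, 3.13 and 2.77. Sec24d, Tmed3, Kdelr2 and Sec11c made up the rest, between 1.84 and 1.32. The core channel subunits Sec61a1 and Sec61b passed on p and not on size, at 0.72 and 0.74.

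Enzymes that add sugars to mucins gave 15 higher and 2 lower of 25 tested, with a median log2 fold change of 1.43. Galnt5, Galnt12, Galnt7, Galnt3 and Galnt10, which start O-linked chains, were higher by 4.94, 3.50, 2.04, 1.69 and 1.40. Gcnt3, which branches mucin chains, had 87.4 and 96.5 CPM in secretory progenitors, against 2.64 and 4.35 in progenitors (4.65 ± 0.28, adjusted p = 5.97e-11, edgeR). Chst4, a sulfotransferase, had 18.5 and 23.2 in secretory progenitors, against 0.696 and 1.20 in progenitors (4.36 ± 0.35). C1galt1 and its chaperone C1galt1c1, which build the core of the chain, rose by 1.68 and 2.05. The 2 genes that fell were St3gal4, a sialyltransferase, with 65.9 and 113 in secretory progenitors against 201 and 200 in progenitors (log2 fold change -1.14 ± 0.26), and Gcnt4 (-1.05 ± 0.32).

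**Figure D5:**
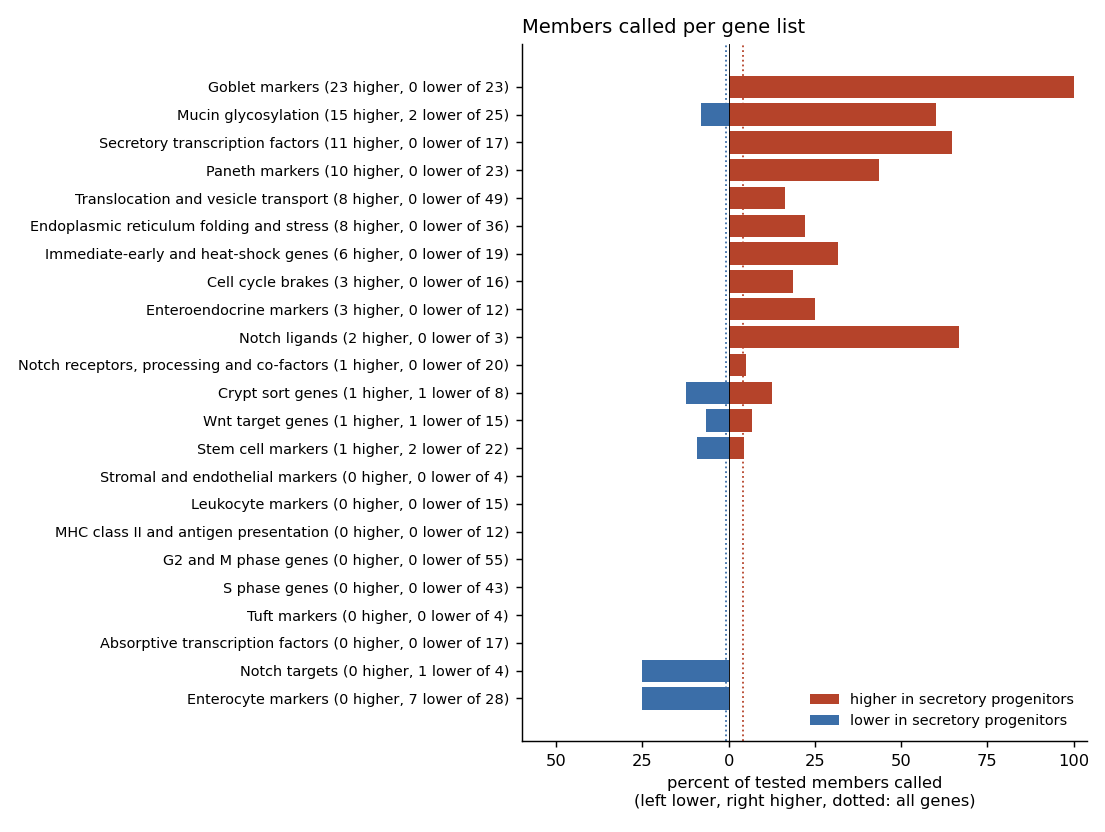
Percent of the tested members of 23 gene lists that were higher (red, to the right) or lower (blue, to the left) in secretory progenitors than in progenitors, with the counts beside each name. The dotted lines mark 4.19% and 0.897%, the shares of all 10814 genes tested; goblet markers reach 23 of 23, and no gene of S phase or of G2 and M phase was called.

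Genes of cell division did not differ by the rule. Of 43 tested S phase genes, 0 were called, with a median log2 fold change of -0.35. All 43 values were negative, and 2 had an adjusted p under 0.05, Pcna at -0.56 and Mcm7, a helicase subunit, at -0.53. Of 55 tested genes of G2 and M phase, 0 were called, with a median of -0.15, and 0 had an adjusted p under 0.05. Mki67, a marker of cycling cells, had 122 and 226 CPM in secretory progenitors and 126 and 214 in progenitors (log2 fold change 0.03, adjusted p = 0.954, edgeR). With only the secretory progenitors of low UMI count, 6 S phase genes were lower.

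Against goblet cells the same genes stood apart: 39 of 43 S phase genes and 54 of 55 genes of G2 and M phase were higher in secretory progenitors. In cells thinned to 8000 UMIs, a UMI of Mki67 was present in 54 of 82 (65.9%) and 121 of 142 (85.2%) secretory progenitors, 7 (6.67%) and 9 (3.77%) goblet cells, and 208 of 330 (63.0%) and 233 of 336 (69.3%) progenitors. Both RNAs occurred in single cells: Atoh1 was found in 27 of 54 and 61 of 121 secretory progenitors with Mki67, against 46.4% and 42.9% of those without it. Of 16 tested brakes on the cell cycle, 3 were higher and none was lower. They were Btg2 (76.9 and 127 in secretory progenitors against 25.3 and 36.1 in progenitors, log2 fold change 1.73 ± 0.28, adjusted p = 0.000144), Gadd45b (1.69 ± 0.20) and Gadd45g (1.36 ± 0.35). The kinase inhibitors Cdkn1a and Cdkn1b were not called, at 0.35 and -0.04. Without library as a block, none of the 16 brakes was called.

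The values that bear on doublets, droplets that hold more than 1 cell, are given here. The median UMI count of secretory progenitors was 19132 and 37838, against 17043 and 23920 in goblet cells and 17366 and 26650 in progenitors. A doublet caller (Scrublet, in scanpy) marked 6 of the 2614 annotated cells and 0 of the 228 secretory progenitors, while its median score in library 2 was highest in secretory progenitors, at 0.086. With only the secretory progenitors at or under the median UMI count of the progenitors, 22 goblet markers and 12 members of the list of secretory transcription factors were higher. The part of doublets in the results was not tested beyond these values, and no cell was removed as one.

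The genes that fell included genes of absorptive cells. Of 28 tested enterocyte markers, 7 were lower and none was higher, with a median log2 fold change of -0.72. The count was 0 without library as a block, 3 by DESeq2, 4 with library totals and 13 with only secretory progenitors of low UMI count. Among them were Alpi, Sis, Anpep, Rbp2 and Prap1. Prap1, a member of the enterocyte list, had 241 and 221 CPM in secretory progenitors, against 576 and 421 in progenitors (-1.07 ± 0.19, adjusted p = 0.000312, edgeR). Sis, the disaccharidase sucrase-isomaltase, had 52.9 and 48.0 in secretory progenitors, against 129 and 91.7 in progenitors (-1.12 ± 0.35, adjusted p = 0.0356). The groups of Prap1 and of Sis were apart, at folds far smaller than those of the goblet markers. Against ISC, 2 of the 28 markers were higher in secretory progenitors and 0 were lower, with a median log2 fold change of 0.21. Against goblet cells, 1 was higher and 15 were lower, with a median of -1.12. The falls are thus relative to progenitors and were not seen against ISC. Of all 97 lower genes, 74 (76.3%) had their highest mean among the 8 types in enterocytes, 10 in ISC and 7 in progenitors. The matching shares over all genes tested are not given here, so these counts cannot be set against them.

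Among the 15 largest falls, Car4, a membrane carbonic anhydrase, had 28.0 and 31.7 CPM in secretory progenitors, against 101 and 80.2 in progenitors (-1.55 ± 0.24, adjusted p = 6.81e-05, edgeR). Arg2, the mitochondrial arginase, had 31.5 and 37.6 in secretory progenitors, against 109 and 91.9 in progenitors (-1.48 ± 0.26). Rbp2, the retinol-binding protein of enterocytes, had 40.5 and 15.9 in secretory progenitors and 137 and 32.8 in progenitors (-1.44 ± 0.41, adjusted p = 0.0229, edgeR; 0.272 by DESeq2 and 0.732 without library as a block), so its groups overlapped across libraries while each library showed a fall. The chemokine Ccl25, which draws T cells to the small intestine, had 148 and 173 in secretory progenitors, against 387 and 345 in progenitors (-1.16 ± 0.21). Akr1c19, Aadac, Lgals3, Glod5, Sult1b1, Fgfbp1, St3gal4, Mgst1 and Tm6sf2 lay between -1.38 for Akr1c19 and -1.13 for Tm6sf2.

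The 2 largest falls rest on few cells. Hbb-bs, a haemoglobin chain with near-identical copies in the genome, had 54 and 0 UMIs in secretory progenitors, against 6593 and 1 in progenitors. Of the 6593, 3336 and 3133 came from 2 cells of library 1. Its fitted log2 fold change was -5.02 (adjusted p = 6.18e-10, edgeR), against -0.20 in library 2 alone, and by DESeq2 its adjusted p was 0.0957. Hba-a1, another haemoglobin chain, had 14 and 0 UMIs in secretory progenitors and 4674 and 0 in progenitors, of which 2525 and 2111 came from 2 cells. It fell further in the fit, by 6.49 on the log2 scale, and was not among the genes named by rule because library 2 held none of its UMIs.

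Stem cell markers gave 1 higher and 2 lower of 22 tested, with a median log2 fold change of -0.14. Lgr5, the receptor that marks stem cells, had 0.499 and 2.50 CPM in secretory progenitors, against 6.26 and 7.38 in progenitors (-1.82 ± 0.34, adjusted p = 0.000571, edgeR). Both progenitor values were low beside the 30.6 and 51.5 of ISC. Olfm4 was the other. Prom1, a membrane protein of crypt cells, had 44.5 and 56.5 in secretory progenitors, against 20.2 and 20.8 in progenitors (1.32 ± 0.20, adjusted p = 5.92e-05). Axin2 and Smoc2 were not called, at -0.09 and -0.06. Of 15 tested Wnt targets, 1 was higher (Mmp7) and 1 lower (Lgr5), with a median of -0.18.

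Genes used to sort crypt cells gave 1 higher and 1 lower of 8 tested. Kit, a receptor tyrosine kinase of secretory cells at the crypt base, had 30.5 and 23.7 CPM in secretory progenitors, against 1.67 and 2.90 in progenitors (3.37 ± 0.27, adjusted p = 4.95e-09, edgeR). In unthinned cells, UMIs of Kit came from 39 of 82 and 95 of 146 secretory progenitors, 2 of 406 and 9 of 488 enterocytes, and 10 of 330 and 22 of 364 progenitors. Lgr5 was the lower one. Cd24a and Sox9 passed on p and not on size, at 0.95 ± 0.21 and 0.75 ± 0.21.

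Markers of other secretory lineages were present at low levels. Of 23 tested Paneth markers, 10 were higher and none was lower, with a median log2 fold change of 1.06. Without library as a block 3 were higher, and the median was 0.45 with only secretory progenitors of low UMI count. The whole list took 1.07% and 0.452% of UMIs in secretory progenitors, against 83.4% and 65.6% in Paneth cells and 0.476% and 0.165% in progenitors. A few cells held much of this: the median cell had 0.583% and 0.133% in secretory progenitors, with maxima of 18.5% and 12.8%, and 0.415% and 0.0659% in progenitors, with maxima of 9.98% and 13.3%. In enterocytes, an absorptive type, the list took 0.472% and 0.0633% of UMIs, and the median cell had 0.439% and 0.066%. Mmp7, the protease that activates defensins, had 110 and 194 CPM in secretory progenitors, against 7.24 and 14.96 in progenitors (3.74 ± 0.34, adjusted p = 2.95e-08, edgeR). Nupr1, Itln1, Clps, Reg4, Defa17, Defa24, Ang4, Pnliprp2 and Mptx1 were the other members that rose, and Mptx1 had no UMI in progenitors. Against goblet cells, Mmp7, Nupr1, Itln1, Clps, Defa24, Ang4 and Mptx1 were called lower in secretory progenitors, Pnliprp2 passed on p and not on size, and Reg4 and Defa17 did not pass. Lyz1, the Paneth lysozyme, had 496 and 266 in secretory progenitors and 281 and 95.5 in progenitors (1.16 ± 0.39, adjusted p = 0.0511). Over 5% of UMIs from Paneth markers were found in 3 and 4 secretory progenitors and in 1 and 1 progenitors. The Defa, Ang, Mptx and Lyz genes have near-identical copies, so their single values are uncertain, and the part of free RNA from Paneth cells was not tested.

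Enteroendocrine markers gave 3 higher and none lower of 12 tested, while 20 were too low to test. The list took 0.0572% and 0.0464% of UMIs in secretory progenitors, against 7.48% and 8.78% in EEC and 0.0136% and 0.00813% in progenitors. Sct, the hormone secretin, had 189 and 147 CPM in secretory progenitors, against 5.85 and 6.94 in progenitors (4.62 ± 0.37, adjusted p = 3.00e-09, edgeR). In unthinned cells its UMIs came from 64 of 82 and 127 of 146 secretory progenitors, 104 of 406 and 129 of 488 enterocytes, and 37 of 330 and 41 of 364 progenitors. Goblet cells had 540 and 280 CPM. The other 2 were Reg4, which the Paneth list holds too, and Pcsk1, a prohormone protease. Chga, the defining granule protein, had 3 and 53 UMIs in secretory progenitors and 66 and 110 in progenitors and was not called (-0.90 ± 0.50). The secretory progenitors held no UMI of Pcsk1n, Scg2, Scg3 or Cpe.

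None of 4 tested tuft markers was called, and 17 were too low to test. Of 15 tested leukocyte markers and 4 tested stromal and endothelial markers, none was called. Leukocyte markers took 0.0160% and 0.00760% of UMIs in secretory progenitors, against 0.0146% and 0.0174% in progenitors. Of 17 stromal and endothelial markers, 12 were at 0 in secretory progenitors and 10 in progenitors. None of 12 tested genes of MHC class II and antigen presentation and none of 13 mitochondrial transcripts was called.

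Immediate-early and heat-shock genes, which respond to growth signals and to handling of cells, gave 6 higher and none lower of 19 tested. Fos had 124 and 149 CPM in secretory progenitors, against 31.5 and 26.3 in progenitors (2.27 ± 0.42, adjusted p = 0.000618, edgeR). Fosb, Atf3, Egr1, Dusp1 and Btg2 were the other higher members, from 3.05 for Atf3 to 1.66 for Dusp1. Without library as a block, 2 of the 19 were higher. In the contrast with goblet cells 10 of the 19 were lower in secretory progenitors, where Fos had 330 and 456 in goblet cells.

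Set against the other types by the same rule, 6.20% of genes were higher and 2.18% lower in secretory progenitors than in ISC. The shares were 3.95% and 5.64% against Paneth cells, 4.75% and 5.63% against EEC, 2.94% and 3.67% against tuft cells and 18.4% and 14.7% against enterocytes. Of the 453 genes higher than in progenitors, 267 (58.9%) had their highest mean in goblet cells, 87 in Paneth cells, 47 in EEC, 31 in tuft cells and 18 in enterocytes. For 3, the highest mean was in secretory progenitors themselves: Ccdc141, Mboat1 and Serpina9, named after their values were seen. The shares of all genes tested with their highest mean in each type are not given here. Serpina9, a serine protease inhibitor, had 14 and 32 UMIs in secretory progenitors and 0 and 0 in progenitors, and its 6.99 and 3.64 CPM were close to the 7.03 and 2.84 of goblet cells. No gene was higher in secretory progenitors than in every other type by edgeR's adjusted p and fold, and none had a log2 fold change of at least 1 over every other type in both libraries. At an unadjusted p under 0.05 in every contrast there were 2, Mmgt1 and Epb41l2, and neither reached the fold in all.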

How the data were processed

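Single-cell RNA was sequenced in 2 droplet libraries (10X Genomics Chromium, per the labels) from mouse small intestine. The authors deposited whole-number UMI counts per gene and barcode and an annotation that names a library, barcode and cell type for 2614 barcodes. Genome build mm9 is given in the submitters' processing notes, 1 matrix header gives software version 3.0.1, and the aligner was not stated in any source used. The 34 small RNA samples were not used here.

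Counts were summed per library and type over 27998 genes. All 16 sums (8 types, 2 libraries) entered 1 edgeR 4.0.16 quasi-likelihood fit (R 4.3.3) with TMM scaling, type as the effect and library as a block. Types share the libraries, and the deviations of the 2 types from their means in the same library correlated at 0.715 over 10814 genes. Genes needed 10 UMIs in at least 2 of the 4 sums compared, which left 10814. P-values, two-sided, were adjusted by the Benjamini-Hochberg method over those genes. A gene was called at an adjusted p under 0.05 and a log2 fold change of at least 1 in size. The SE is not an output of the test. It was derived as the size of the log2 fold change divided by the square root of the test's F statistic. Levels of different genes were not compared. Fold changes per library are log2 ratios from 1 library alone, with a prior count of 2. DESeq2 1.42.0 was an alternative, and the scripts were tested on simulated data.

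Genes named by rule were the 15 largest rises and 15 largest falls among called genes with the same sign in both libraries and a mean of at least 50 CPM in the higher type, then members of 24 gene lists. The cell types, lists and members were chosen with earlier results of these data known. No cells were filtered beyond the annotation, and none was removed as a doublet. The lowest UMI count of an annotated cell was 1116. Promoter windows were read from RefSeq's table for GRCm38.p6, and Scrublet ran in scanpy 1.11.5. Some genes are not reported here.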

Additional observations from a re-analysis of the deposited data

How the results depend on the processing

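The count of higher genes, 453, ranged from 362 to 641 under DESeq2 size factors, library totals, DESeq2, no filter, the 4 sums alone, the loss of the tenth of cells with the most UMIs, thinning to 8000 UMIs, and 2 alternatives chosen after seeing the data (no cells over 10% mitochondrial UMIs, and only secretory progenitors of low UMI count). Without library as a block, which leaves the pairing of types within a library out of the fit, the counts were 252 higher and 9 lower; 251 and 9 of these genes are among those called with the block, and 15 of the 30 genes named by rule were no longer called. The count of lower genes, 97, was 48 by DESeq2, 152 without the tenth of cells with the most UMIs, 160 after thinning and 401 with only secretory progenitors of low UMI count, of which 47, 85, 61 and 59 are shared with the 97; the cause was not tested. In that last setting the log2 fold change of Pnliprp2, a Paneth marker, was -0.27 (adjusted p = 0.923, edgeR), against 1.47 with all cells; no other called gene of the lists changed sign in any setting. The planned limit of 20% mitochondrial UMIs left out no cell, since the highest share was 14.99%, so it gives the reported values. Leaving out a library leaves no residual degrees of freedom, so only log2 fold changes were computed. Unthinned shares of cells with a UMI of Atoh1 were 72.0% and 89.7% in secretory progenitors, 9.62% in progenitors of library 2 and 2.87% in enterocytes of library 2. Those of Dll1 were 69.5% and 88.4% in secretory progenitors, 11.5% and 14.8% in progenitors and 11.3% and 14.55% in enterocytes. Depth limits the rarest genes: 20 of 32 enteroendocrine and 17 of 21 tuft markers could not be tested.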
